A study of Mus musculus with 6 samples.

Results

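The mitochondrial ribosomal proteins were the 72 genes of the array whose symbol starts with *Mrpl* or *Mrps* and a digit, out of 18138 gene symbols with a probe. They were chosen by symbol alone, with no use of their signal. Where a symbol had several probes, the probe with the highest mean over the 6 arrays stood for it. The 72 members, 44 *Mrpl* and 28 *Mrps* genes, were measured by 105 probes. Gene expression was compared in 3 cochlear samples of wild-type (WT) mice and 3 of *Cmah*-null mice, both of strain C57BL/6 and 12 months old. *Cmah*-null mice carry the *Cmah* <tm1Ykoz> knockout allele in the germline and cannot hydroxylate CMP-Neu5Ac, while WT mice carry no altered allele or treatment that the labels name. Biotin-labelled cRNA of each sample was hybridized to 1 Illumina MouseRef-8 v2 array, on which each probe is a short oligonucleotide coupled to many beads. The labels number the samples of a genotype but do not say that each came from a separate mouse, so p-values measure the spread between these samples.

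Mitochondria make a small set of proteins of their own, all of them core subunits of the respiratory chain and the ATP synthase, on a ribosome that descends from the bacterial one. The RNA of this ribosome is encoded by mitochondrial DNA, whereas its proteins are encoded in the nucleus, translated in the cytosol and imported. Some of these proteins have a bacterial homolog and others were added in mitochondria, and inherited defects in several of them cause disease, hearing loss included.

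Between 13873 and 15223 of 25697 probes were detected on an array, which means a detection p under 0.05 against negative control beads. The probe for *Cmah* was detected on 1 WT and 2 *Cmah*-null arrays, too few to check the genotype of a sample. It read 7.27, 7.28 and 7.87 in WT and 7.95, 7.98 and 7.27 in *Cmah*-null mice. *Cmah*-null replicate 3 stood apart from the other arrays and *Cmah*-null replicates 1 and 2 were close to each other, so values of the members are given for replicates 1 and 2 and for replicate 3 as well. The labelled tissue was checked with 13 genes known from the cochlea (of 15 listed): 9 were detected on all 6 arrays, including *Coch*, *Otos*, *Gjb2* and *Myo7a*, while *Slc26a5* and *Pou4f3*, which mark hair cells, were detected on none. The summed log2 level of these 13 genes was 13.70 on the array of WT replicate 1 and from 14.45 to 14.77 on the other 5, and *Coch* was measured there at 10.40 against 12.39 and 12.48 on the other WT arrays. WT replicate 1 was also the highest array in 26 of the 72 members. Without it the members' median log2 fold change as deposited (*Cmah*-null minus WT) was -0.24 in place of -0.26. Of the 72 members, 66 were detected on all 6 arrays, *Mrpl39* on 5 and *Mrpl45* on 1. *Mrpl19*, *Mrpl21*, *Mrpl32* and *Mrps14* were detected on none, so that no difference can be read for them.

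With the deposited quantile normalization, but not with median scaling, most mitochondrial ribosomal protein genes had a lower signal in *Cmah*-null than in WT cochlea, in both subunits of the ribosome. The log2 fold change was below 0 in 59 of the 72 members and above 0 in 13, and its median was -0.26, against 0.04 over the 9907 symbols detected on all 6 arrays, but when raw signals were scaled to a common median with no quantile step (median scaling) these medians became 0.09 and 0.34, so that the direction depended on the scaling. Relative to the median of the detected symbols, the median of all 72 members stood at -0.25 with median scaling and at -0.30 as deposited. These sets are unlike, since some members were not detected on all arrays. The 66 members detected on all 6 arrays had medians of -0.26 as deposited and 0.14 with median scaling. Set against the same 0.04 and 0.34, their distance was smaller with median scaling. The share of members with a fold change below 0 was 81.9%, where all 18138 symbols had 46.9%. The fold changes ran from -1.11 in *Mrps18c* to 0.30 in *Mrps2*, and in 25 members the fold change was smaller than its standard error.

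No member passed an adjusted p of 0.05 in limma (background 0.0% of all symbols), where the smallest adjusted p among them was 0.395. At an unadjusted p under 0.05 in limma, 10 members were lower, while 3.49% of all symbols and 5.15% of detected symbols were. At the same p 0 members were higher, against 5.58% of all symbols. A signal lower by at least 1.5-fold was found in 15 members, against 3.48% of all and 6.04% of detected symbols, and 0 members were higher by 1.5-fold, against 3.34%. Both criteria together were met by 5 members, *Mrps15*, *Mrpl1*, *Mrpl12*, *Mrpl20* and *Mrpl27*. The share of all symbols that met both was not counted. The 3 *Cmah*-null arrays lay below the 3 WT arrays in 21 members, against 6.67% of all and 7.43% of detected symbols. They lay above them in 1 member, *Mrpl51*, against 10.0% of all symbols. With median scaling the members at an unadjusted p under 0.05 were 1 lower, against 0.617% of all and 0.696% of detected symbols, and 5 higher (6.94%), against 15.8% and 28.4%. Lower by 1.5-fold were then 3 members (4.17%), against 0.827% and 1.25%. The number of beads per probe was lower on the arrays of WT replicate 1 and *Cmah*-null replicates 1 and 2 than on the other 3, and with this as a block 26 members were lower at that p (36.1%), against 7.3% of all and 11.0% of detected symbols. In the same fit 1 member was higher, against 11.3% and 18.1%, and 25 were lower by 1.5-fold (34.7%), against 5.44% and 9.31%. Within the sets of arrays with fewer and with more beads the members' median fold change was -0.18 and -0.46. The first set held only 1 WT array, and the second held *Cmah*-null replicate 3 as its only *Cmah*-null array. An exact permutation test on 3 against 3 arrays cannot give a p below 0.1 for any single gene. As cochlear tissue was measured in bulk, fewer cells of a type and less RNA per cell cannot be told apart.

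**Figure D1:**
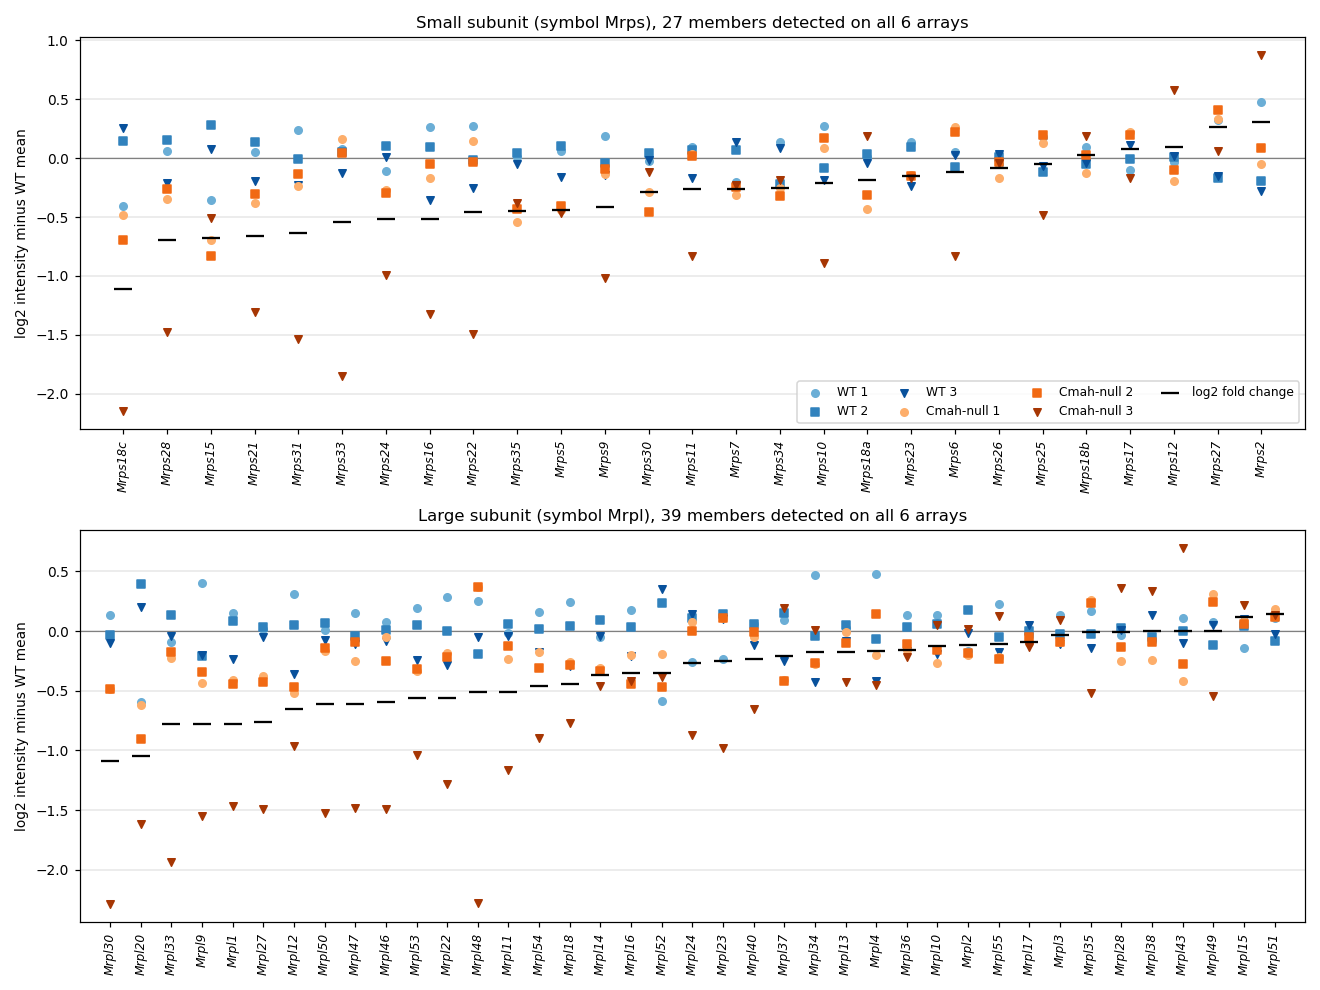
Log2 intensity of each member on each array, minus the mean of the 3 WT arrays, for the small subunit (top) and the large subunit (bottom), ordered by log2 fold change (black bars). WT arrays are blue and *Cmah*-null arrays orange to brown. The fold changes run from -1.11 in *Mrps18c* to 0.30 in *Mrps2* as deposited, their median changes sign from -0.26 to 0.09 with median scaling, and *Cmah*-null replicate 3 is the lowest array in 41 of the 66 members plotted.

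In the small subunit, the proteins that have a bacterial homolog included the member with the largest difference. Of 16 such genes, 12 had a fold change below 0, with a median of -0.34 that became 0.01 with median scaling. *Mrps18c* is one of the genes for 3 mitochondrial versions of bacterial S18. Its log2 intensity was 11.33, 11.89 and 11.99 in WT and 11.26, 11.05 and 9.59 in *Cmah*-null mice. The groups did not overlap, but most of the distance came from *Cmah*-null replicate 3, which lay far below its group. The log2 fold change was -1.11 (standard error 0.47, limma adjusted p 0.599), and without that array it was -0.59. *Mrps15*, homolog of a protein that binds the ribosomal RNA early in bacterial assembly, was measured at 8.84, 9.49 and 9.28 in WT and at 8.51, 8.37 and 8.69 in *Cmah*-null mice. Here the *Cmah*-null arrays lay close together, all below WT, and the fold change of -0.68 (standard error 0.19, limma adjusted p 0.465) was -0.77 without *Cmah*-null replicate 3. *Mrps15* was also the 1 member that remained lower at an unadjusted p under 0.05 after median scaling, with a fold change of -0.46. *Mrps5*, whose bacterial homolog takes part in decoding, gave 9.74, 9.79 and 9.53 against 9.24, 9.28 and 9.22. Its groups were also well apart, and each had a small spread. The fold change of *Mrps5* was -0.44 (standard error 0.09, limma adjusted p 0.397), but with median scaling it was -0.12 (standard error 0.24).

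*Mrps28* and *Mrps21*, the homologs of bacterial S1 and S21, had fold changes of -0.70 and -0.66. In both, *Cmah*-null replicates 1 and 2 lay just under the lowest WT array and replicate 3 far below both, so that without replicate 3 the values were -0.30 and -0.34. *Mrps16*, a gene in which human mutations cause a fatal mitochondrial disease, had a fold change of -0.51 (standard error 0.38, limma adjusted p 0.736) with groups that overlapped, and it was -0.11 without *Cmah*-null replicate 3 and -0.08 with median scaling. *Mrps7* is a hearing loss gene in humans and the homolog of a protein that organizes the head of the small subunit. Its brightest probe gave 11.83, 12.11 and 12.18 in WT and 11.73, 11.80 and 11.82 in *Cmah*-null mice. A second probe of *Mrps7* gave 10.23, 10.22 and 10.26 against 10.38, 10.36 and 10.31. The groups did not overlap on either probe, yet the first put *Cmah*-null below WT by -0.26 and the second put it above WT by 0.11, so the gene has no settled direction. *Mrps12*, homolog of the decoding protein S12, and *Mrps2*, also a human hearing loss gene, were the members of this class with the highest fold changes. The log2 intensity of *Mrps2* was 9.28, 8.62 and 8.53 in WT and 8.76, 8.90 and 9.69 in *Cmah*-null mice, so that the groups overlapped. That of *Mrps12* was 12.33, 12.37 and 12.38 in WT and 12.17, 12.26 and 12.94 in *Cmah*-null mice. In both genes the highest array was *Cmah*-null replicate 3, and the fold changes, 0.30 and 0.09, were smaller than their standard errors of 0.32 and 0.21.

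Of 10 small subunit genes listed as mitochondria-specific, 8 had a fold change below 0 and the median was -0.20, which became 0.26 with median scaling. The list holds *Mrps18b*, although it is a version of bacterial S18. *Mrps35* had the smallest p of all members. It was measured at 9.74, 9.77 and 9.68 in WT and at 9.19, 9.30 and 9.35 in *Cmah*-null mice. All *Cmah*-null arrays lay below all WT arrays, and the *Cmah*-null replicates that differed in other members were alike here. The fold change was -0.45 (standard error 0.08, limma adjusted p 0.395), but with median scaling it was -0.13 (standard error 0.20). *Mrps31* had the most negative fold change of the class, -0.64 (standard error 0.40, limma adjusted p 0.697). It rested on *Cmah*-null replicate 3, at 10.23, since replicates 1 and 2, at 11.54 and 11.64, reached the WT values of 12.01, 11.76 and 11.54. *Mrps22*, a human disease gene for cardiomyopathy and ovarian failure, had -0.46 (standard error 0.45), and its sign turned to 0.06 without *Cmah*-null replicate 3. *Mrps27*, a pentatricopeptide repeat protein, had the most positive value, 0.27 (standard error 0.17, limma adjusted p 0.708). Its arrays read 8.83, 8.34 and 8.35 in WT and 8.84, 8.92 and 8.57 in *Cmah*-null mice, overlapping through WT replicate 1. *Mrps18b*, another of the S18 genes, had 0.03 by its brightest probe and -0.25 by a second probe, with overlapping groups on both.

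In the large subunit, 27 of 30 genes with a bacterial homolog had a fold change below 0, with a median of -0.22 that became 0.06 with median scaling. *Mrpl30* had the most negative fold change, -1.09 (standard error 0.50, limma adjusted p 0.624). It was measured at 11.24, 11.07 and 11.00 in WT and at 10.62, 10.61 and 8.82 in *Cmah*-null mice. Replicates 1 and 2 were thus below WT by more than the spread of the WT arrays, and replicate 3 was far lower still. *Mrpl20* gave 10.90, 11.90 and 11.70 in WT and 10.88, 10.60 and 9.88 in *Cmah*-null mice. The groups were barely apart, since WT replicate 1 was close to *Cmah*-null replicate 1, and the fold change was -1.05 (standard error 0.36, limma adjusted p 0.546). *Mrpl33* was measured at 12.31, 12.54 and 12.37 in WT and at 12.18, 12.23 and 10.47 in *Cmah*-null mice. Its fold change of -0.78 (standard error 0.49) was carried by replicate 3, and its probes gave similar values, -0.78 and -0.77. *Mrpl9* and *Mrpl1*, the latter the protein of the stalk beside the exit site for tRNA, had fold changes of -0.78 and -0.77, with groups that did not overlap. Without *Cmah*-null replicate 3 they were -0.39 and -0.43, and the mean of all probes put *Mrpl1* at -0.28. Without the same array *Mrpl30* was at -0.49 and *Mrpl33* at -0.20.

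*Mrpl12* is the stalk protein that recruits translation factors to the ribosome and also binds the mitochondrial RNA polymerase. Its log2 intensity was 12.38, 12.12 and 11.71 in WT and 11.55, 11.60 and 11.11 in *Cmah*-null mice. All *Cmah*-null arrays were below WT and the fold change was -0.65 (standard error 0.22, limma adjusted p 0.543). With median scaling the fold change was -0.16 (standard error 0.38). *Mrpl14*, which lies where the subunits meet, gave 11.27, 11.41 and 11.27 against 11.00, 10.98 and 10.86. This was a small difference with a small spread in both groups, -0.37 (standard error 0.08, limma adjusted p 0.406). *Mrpl3*, a protein that reaches close to the site of peptide bond formation, had -0.03 (standard error 0.10), and *Mrpl15* had the most positive value of the class, 0.12 (standard error 0.10, limma adjusted p 0.758).

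The 16 large subunit genes on the array listed as mitochondria-specific had 12 fold changes below 0 and a median of -0.26, which became 0.17 with median scaling. They include *Mrps30* and *Mrps18a*, which sit in the large subunit despite their names, and *Mrps18a* is also a version of bacterial S18. *Mrps30* was measured at 11.57, 11.64 and 11.58 in WT and at 11.31, 11.14 and 11.48 in *Cmah*-null mice. The groups did not overlap, and the fold change was -0.28 (standard error 0.10, limma adjusted p 0.569). *Mrps18a* read 11.10, 11.13 and 11.05 in WT against 10.66, 10.78 and 11.28 in *Cmah*-null mice. Here replicates 1 and 2 were below WT and replicate 3 above it, which left a fold change of -0.19 (standard error 0.17). *Mrpl43* had the same arrangement, with 11.29, 11.18 and 11.08 in WT against 10.77, 10.91 and 11.88. Its *Cmah*-null arrays lay on both sides of WT, and the fold change was 0.00 by this probe and -0.20 by a second one. *Mrpl49* showed the opposite arrangement, with replicates 1 and 2 at 11.78 and 11.71, above the WT values of 11.54, 11.35 and 11.52, and replicate 3 below them at 10.93. *Mrpl51* was the member with all *Cmah*-null arrays above WT, with 8.54, 8.48 and 8.49 against 8.47, 8.27 and 8.34. The difference was 0.14 (standard error 0.08, limma adjusted p 0.676), and its 3 probes gave 0.14, 0.16 and -0.02.

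Among the 21 members with several probes, 17 had at least 2 probes detected on all 6 arrays. These probes gave the same sign in 12 members and opposite signs in 5, which were *Mrpl43*, *Mrpl49*, *Mrpl51*, *Mrps18b* and *Mrps7*.

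The size of the difference varied between the *Cmah*-null samples. The median log2 intensity over the 72 members was 11.17, 11.07 and 11.03 in WT and 10.86, 10.89 and 9.94 in *Cmah*-null mice. The *Cmah*-null arrays were thus all below WT, 2 of them by a little and replicate 3 by far. *Cmah*-null replicate 3 was the lowest of the 6 arrays in 41 members (56.9%, against 25.3% of all symbols). Over the 66 detected members, the SD of the log2 difference was 0.11 between *Cmah*-null replicates 1 and 2, from 0.16 to 0.36 between WT arrays, and 0.78 and 0.75 between replicate 3 and the other *Cmah*-null arrays.

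As deposited, replicates 1 and 2 alone lay below WT in most members, while with median scaling they did so in 8 of 72. The median was then 0.40, against 0.50 over all detected symbols. Of the 66 members detected on all 6 arrays, 2 were then below WT, against 1279 of 9907 detected symbols. As deposited their mean minus the WT mean had a median of -0.17 and was below 0 in 52 of 72 members (72.2%, against 48.0% of all symbols). Both were below every WT array in 30 members (41.7%, against 15.2%), and in 21 of these so was replicate 3. In the fit without replicate 3, 14 members were lower at an unadjusted p under 0.05 in limma (19.4%), against 5.62% of all and 8.82% of detected symbols. At the same p 3 members were higher (4.17%), against 8.7% and 13.1%. A signal lower by 1.5-fold was found in 3 members (4.17%), against 3.0% and 5.21%, and no member passed an adjusted p of 0.05. That fit rests on the small distance between replicates 1 and 2. The 3 members lower by 1.5-fold there were *Mrps15* (-0.77), *Mrpl20* (-0.76) and *Mrps18c* (-0.59), and the 3 higher ones were *Mrpl48* (0.37), *Mrpl49* (0.28) and *Mrps6* (0.24). *Mrpl48* shows how far the replicates could part, with 11.49 in both replicates 1 and 2, above every WT array (11.37, 10.93 and 11.07), and 8.85 in replicate 3. Taking both sides of 0, 40 members were below the WT mean in replicates 1 and 2 and in replicate 3, 12 only in replicates 1 and 2, 15 only in replicate 3, and 5 in neither.

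The place of a probe in its transcript moved with these differences. For the 21 detected members whose probe starts before base 500 of the transcript, replicate 3 minus the WT mean had a median of -1.16, for the 28 members with a later start below 1000 it was -0.44, and for the 17 members with a start at 1000 or later it was -0.11. Over all detected symbols the corresponding medians were -0.53, -0.23 and 0.17. The members' probes start early, at a median of base 728, against 2039 for all detected symbols, and a start sets a lower bound on transcript length. For replicates 1 and 2 the medians of the members were -0.27, -0.15 and -0.11, and those of all detected symbols 0.00, 0.02 and 0.04. Spearman's rho between probe start and difference was 0.42 for replicate 3 and 0.27 for replicates 1 and 2 over the 66 members, and 0.31 and 0.06 over the detected symbols, where the genes share the same arrays. The part of probe position or transcript length in the members' values was not tested.

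**Figure D2:**
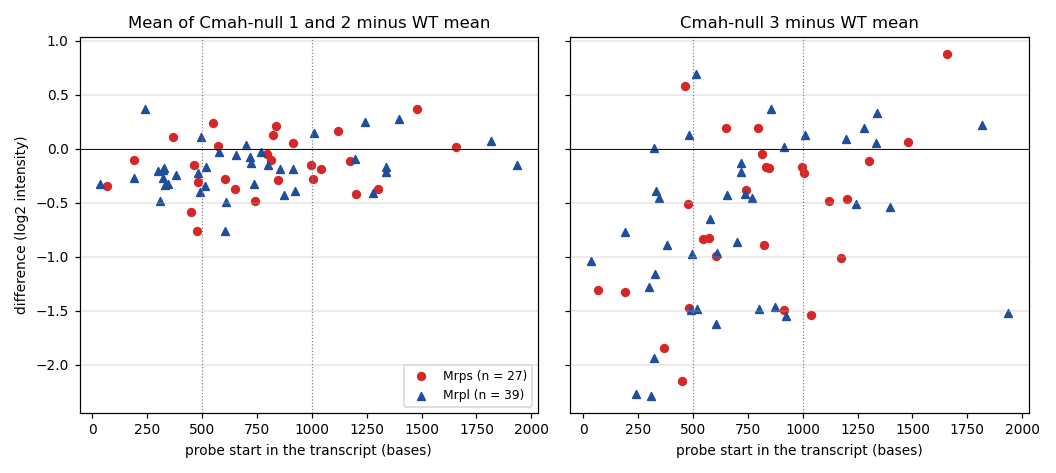
Difference from the WT mean (log2 intensity, as deposited) of the 66 detected members against the base of the transcript at which the probe starts, for the mean of *Cmah*-null replicates 1 and 2 (left) and for replicate 3 (right), with dotted lines at 500 and 1000 bases. In replicate 3 the median is -1.16 for starts before 500 and -0.11 for starts at 1000 or later, while in replicates 1 and 2 the medians are -0.27 and -0.11.

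Many nuclear genes for mitochondrial proteins carry binding sequences for NRF1, ETS family factors such as GABP, or YY1 close to their start. RefSeq promoters (build GRCm38.p6, 250 bases before to 50 after each start) were found for 63 of the 72 members. On either strand, GCGCANGCG, a form of the NRF1 motif, was present in 14 members (22.2%, against 14.4% of 7303 genes with a probe detected on all 6 arrays and 7.03% of all 27025 genes in the promoter table). The ETS motif CCGGAAG was present in 24 members (38.1%, against 18.9% and 9.93%), and AANATGGCG, a form of the YY1 motif, in 9 (14.3%, against 5.61% and 2.76%). In all, 39 members held at least 1 of these (61.9%, against 33.1% of the genes with a detected probe).

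The last 100 bases before the start are shown for the 4 named members that hold the NRF1 motif there, and for a pair with the ETS motif whose fold changes differ in sign. The 4 were among the members named for a low fold change or a small p, and the pair was picked for its signs, so their signs are no result. Capitals mark the motif on either strand, and matches on both strands overlap in *Mrpl9*. The windows are chr1:37890377-37890476 on the plus strand (*Mrpl30*), chr3:94443236-94443335 on the plus strand (*Mrpl9*), chr3:95871515-95871614 on the minus strand (*Mrps21*), chr11:120484537-120484636 on the plus strand (*Mrpl12*), chr9:98601680-98601779 on the minus strand (*Mrps22*) and chr13:99344686-99344785 on the plus strand (*Mrps27*).
*Mrpl30*: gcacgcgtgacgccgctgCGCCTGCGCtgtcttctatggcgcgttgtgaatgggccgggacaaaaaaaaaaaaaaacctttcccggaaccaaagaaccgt
*Mrpl9*: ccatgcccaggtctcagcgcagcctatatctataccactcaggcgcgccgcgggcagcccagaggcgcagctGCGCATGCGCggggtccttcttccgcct
*Mrps21*: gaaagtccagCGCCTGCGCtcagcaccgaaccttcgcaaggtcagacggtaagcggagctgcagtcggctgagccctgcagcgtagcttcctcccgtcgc
*Mrpl12*: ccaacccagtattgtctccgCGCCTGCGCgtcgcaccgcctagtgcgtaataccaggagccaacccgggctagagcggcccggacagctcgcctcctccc
*Mrps22*: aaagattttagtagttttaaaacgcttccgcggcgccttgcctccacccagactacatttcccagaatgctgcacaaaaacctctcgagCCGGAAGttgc
*Mrps27*: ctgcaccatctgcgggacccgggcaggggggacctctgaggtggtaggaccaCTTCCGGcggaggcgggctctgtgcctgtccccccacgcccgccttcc

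The fold changes of these genes were -1.09, -0.78, -0.66 and -0.65 for the NRF1 motif and -0.46 and 0.27 for the ETS motif, in the order shown. Among the detected members with a promoter, the 11 with the NRF1 motif ran from -1.09 in *Mrpl30* to 0.03 in *Mrps18b*, with a median fold change as deposited of -0.41, and the 47 without it had one of -0.26. For the ETS motif the medians were -0.35 in 23 members with it and -0.26 in 35 without it, and for the YY1 motif -0.21 in 9 with it and -0.36 in 49 without it. These are descriptions of few genes, and a motif match is not a binding site.

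As deposited, the members had the sign of complex I and not that of the cytosolic ribosomal proteins in replicates 1 and 2, and with median scaling all of these lists were above 0 there. The 33 subunit genes of complex I, the respiratory enzyme that takes part of its subunits from mitochondrial translation, had a median difference from WT of -0.37 in replicates 1 and 2 and of -1.30 in replicate 3. The 63 cytosolic ribosomal protein genes had 0.15 and -0.99, and the members -0.17 and -0.46. In replicates 1 and 2, 17 of the 63 cytosolic ribosomal protein genes (27.0%) were below the WT mean, against 52 of the 72 members. With median scaling, replicates 1 and 2 had medians of 0.22 in complex I, 0.40 in the members and 0.72 in cytosolic ribosomal proteins. That of all detected symbols was 0.50, and the order of the lists by median was kept. By count below the WT mean the order was not kept. Such genes were 9 of 33 in complex I, 8 of 72 members and 9 of 63 cytosolic ribosomal proteins. Among all detected symbols 1279 of 9907 were below. In replicate 3 the median of the members was -0.46 as deposited and -0.45 with median scaling, where that of all detected symbols was 0.08 and 0.09. The fold changes over all arrays had a median of -0.69 in complex I and of -0.30 in the cytosolic ribosomal proteins, which became -0.27 and 0.05 with median scaling, where the members had 0.09. The families share the same arrays, and the difference between them was not tested.

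**Figure D3:**
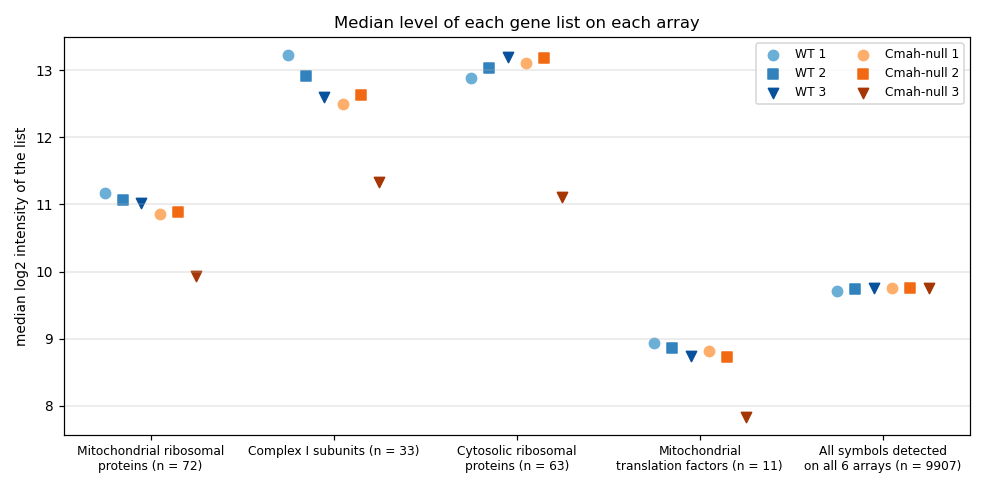
Median log2 intensity, as deposited, of the 72 members and of 4 other gene lists on each of the 6 arrays (blue, WT; orange to brown, *Cmah*-null). The members' median is between 11.03 and 11.17 in WT and 10.86, 10.89 and 9.94 in *Cmah*-null mice, but with median scaling the members' median difference from WT becomes 0.40 in replicates 1 and 2 and stays below 0, at -0.45, in replicate 3.

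Markers of tissues rich in mitochondria differed between the arrays as well. All 14 skeletal muscle markers were detected on all 6 arrays, and their summed level on the log2 scale ran from 18.30 to 19.03 in WT and from 18.42 to 18.48 in *Cmah*-null mice. This sum is set by the brightest probes, and gene by gene 13 of the 14 had a fold change below 0 (*Myh2* at -0.00), with a median of -0.51 as deposited and of -0.11 with median scaling. Without *Cmah*-null replicate 3 the muscle median was -0.51 as well. Of the 9 brown fat markers on the array, 5 were detected on all 6 arrays, with a summed log2 level from 15.23 to 15.98 in WT and from 14.24 to 15.74 in *Cmah*-null mice, while *Dio2* and *Prdm16* were detected on none. *Ucp1*, the uncoupling protein that defines brown fat, was measured at 13.63, 12.48 and 11.79 in WT and at 10.82, 10.84 and 9.90 in *Cmah*-null mice. Both it and *Cidea* ran from WT replicate 1, the highest, to *Cmah*-null replicate 3, the lowest, which is also the order of the members' median, but the other detected markers of the list did not. *Adipoq* and *Cidec*, which fat cells of both kinds express, were highest in WT replicate 3. *Cfd* was measured at 14.41, 14.05 and 15.11 in WT and at 15.29, 15.26 and 13.81 in *Cmah*-null mice. Each of the 5 detected markers was lowest in *Cmah*-null replicate 3. The part of muscle or brown fat RNA in the members' values was not tested.

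The other genes of mitochondrial translation on the array were taken by list. The 7 ribosomal subunits with other names, 6 of them detected on all 6 arrays, had 4 fold changes below 0 and only 2 without *Cmah*-null replicate 3. They ran from -0.64 in *Ptcd3*, a pentatricopeptide repeat protein of the small subunit, to 0.21 in *Mrp63*. Of 11 translation factors 9 were detected on all 6 arrays, *Mtif2* on 1 and *Guf1* on none. The 9 detected ones all had a fold change below 0, with a median of -0.25, and with median scaling 5 of them were below 0, with a median of -0.07. They ran from -0.68 in *Gfm1*, the elongation factor that moves the ribosome along the message, to -0.01 in *Tsfm*, which recharges elongation factor Tu. Without *Cmah*-null replicate 3 these were -0.88 and -0.37. Of 13 aminoacyl-tRNA synthetases detected on all 6 arrays, out of 15, 8 were below 0 and the median was -0.08, or 0.09 with median scaling. They ran from -0.48 in *Fars2*, which loads phenylalanine, to 0.17 in *Ears2*, which loads glutamate, and without *Cmah*-null replicate 3 these were -0.32 and 0.083. Of 14 assembly factors detected on all 6 arrays, out of 17, 9 were below 0, with a median of -0.09, or 0.12 with median scaling, and a range from -0.50 in *Mterfd2* to 0.23 in the helicase *Dhx30*. Without *Cmah*-null replicate 3 these were -0.10 and 0.17, so that the value of *Mterfd2* rested on that array. Of 5 genes of mitochondrial transcription 4 were below 0, with a median of -0.26, while with median scaling 2 were, with a median of 0.12. Their fold changes as deposited ran from -0.61 (standard error 0.16) in *Mterfd3* to 0.37 (standard error 0.27) in the RNA polymerase *Polrmt*. The value of *Polrmt* rested on *Cmah*-null replicate 3, without which it was 0.056, while *Mterfd3* was then at -0.60. Of 12 genes of mitochondrial translation with a known part in hearing loss, *Mrps2* and *Mrps7* among them, 10 were detected on all 6 arrays. Of these, 5 were below 0 and 5 above as deposited, while with median scaling 2 were below 0, with a median of 0.26. The deposited values ran from -0.47 in *Rmnd1* to 0.35 in the protease *Clpp*, and no gene of these lists passed an adjusted p of 0.05 in limma.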

How the data were processed

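Per the file headers, the deposited raw table held intensity values (mean bead signal on a linear scale, without background subtraction), the standard error over beads, how many beads each probe had and its detection p-value. The authors deposited a second table of log2 values, quantile normalized, and quantile normalization of the raw signals repeated here gave the same values (median absolute difference 2.5e-07). Its columns name the second group "old", and they were matched to the *Cmah*-null samples by group and number. The authors' comparison columns (fold change, LPE statistic, adjusted p) were not used, nor were 12 columns that repeat signals and detection p. The log2 values of all 25697 probes were fitted with limma 3.58.1 in R 4.3.3 (lmFit, eBayes, genotype as the only term, two-sided) after a trial on simulated data. P-values were adjusted by the Benjamini-Hochberg method over all probes.

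Members and lists (classes of mitochondrial ribosomal protein, other subunits, translation factors, synthetases, assembly, transcription, hearing loss, markers of cochlea, muscle and brown fat) were chosen with earlier results of these data known. Named members were disease, stalk and S18 genes, the 5 lowest and 3 highest of each subunit, the 6 with the smallest p and those whose probes differed in sign, and in other lists the lowest and the highest. *Mrps36*, *Mrpl41* and *Mrpl44*, also set to be named, were not matched by symbol and are not analysed here. *Mrpl27*, *Mrpl48*, *Mrps6*, the undetected members and the markers named were chosen after their values were seen. The alternatives were neqc normalization (offset 16), median scaling, detection on at least 3 arrays, the replicate number or the bead number as a block, another variance prior, the mean of all probes, averaging *Cmah*-null replicates 1 and 2, and leaving out each array. The number of arrays limits the precision. The plots used matplotlib 3.10.9 with Python 3.11.15.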

Additional observations from a re-analysis of the deposited data

How the results depend on the processing

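Median scaling in place of the quantile step was the alternative that turned the members' direction, and the cause was not tested. The median log2 fold change was then 0.088 over all members, 0.088 over the small and 0.066 over the large subunit, against 0.34 over all detected symbols. Below 0 were 32 of the 72 members, 26 of the 66 detected members and 1773 of the 9907 detected symbols. Median scaling left 1 member lower and 5 higher at an unadjusted p under 0.05 in limma, against 0.617% and 15.8% of all symbols. By 1.5-fold 3 members were lower, against 0.827%, and 2 were higher. Groups did not overlap in 1 member lower and 5 higher. For higher by 1.5-fold and for groups that did not overlap, shares over all symbols were not counted in this fit. Under the other alternatives the medians stayed below 0. With the number of beads as a block, 26 members were lower and 1 higher at that p and 25 lower by 1.5-fold. On the arrays with fewer beads alone (WT replicate 1, *Cmah*-null replicates 1 and 2) 4 members were lower by 1.5-fold and the median was -0.18, and on the others 33 were lower, 2 higher and the median was -0.46. With *Cmah*-null replicates 1 and 2 averaged, 23 were lower by 1.5-fold. With the mean of all probes, 0 members had all *Cmah*-null arrays above WT. Shares over all symbols were not counted for the sets of arrays by beads, the averaged replicates or the mean of all probes. Their counts thus have no background.

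Leaving out 1 array at a time gave medians from -0.35 to -0.17, from 5 (without WT replicate 2) to 14 members lower and from 0 to 3 higher at an unadjusted p under 0.05 in limma, and from 3 (without *Cmah*-null replicate 3) to 24 (without *Cmah*-null replicate 1, and 23 without replicate 2) lower by 1.5-fold. Groups did not overlap in 22 to 36 members (36 without WT replicate 3) with *Cmah*-null below WT and in 1 to 7 above it. With 1 array fewer, groups separate more easily. Except without *Cmah*-null replicate 3, shares over all symbols were not counted in these fits, so these counts have no background. Among the 28 named members, 11 changed sign at least once. With arrays left out, *Mrpl3* ranged from -0.092 to 0.035, *Mrpl43* from -0.35 to 0.21, *Mrpl49* from -0.15 to 0.28, *Mrps12* from -0.15 to 0.24, *Mrps18b* from -0.051 to 0.11 and *Mrps22* from -0.76 to 0.056. With median scaling *Mrpl14* was at 0.12, *Mrpl3* at 0.45, *Mrps18a* at 0.30, *Mrps30* at 0.21 and *Mrps7* at 0.25, and with neqc *Mrpl43* was at -0.0065 and *Mrpl49* at -0.00. With fewer beads alone *Mrpl43* was at -0.45, *Mrps12* at -0.12, *Mrps18b* at -0.15 and *Mrps2* at -0.45, and with more beads alone *Mrpl3* was at 0.16, *Mrpl49* at -0.51 and *Mrps18a* at 0.19. *Mrpl49* was at -0.15 with the block for beads and at -0.13 with the averaged replicates, and with the mean of all probes *Mrpl43* was at -0.10 and *Mrps18b* at -0.11. Apart from the fits on arrays with fewer or more beads alone, no member passed an adjusted p of 0.05 in limma under any alternative. Those fits left 1 array in a group, so their p-values were not used.

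Deviations of same-numbered arrays from their group means correlated over probes with r = 0.01, -0.15 and -0.00. Arrays with unlike numbers gave r from -0.08 to 0.13. These values cannot decide whether the replicate numbers pair the samples, since deviations within so small a group depend on each other. Over all detected symbols, *Cmah*-null replicates 1 and 2 lay close (SD of the log2 difference 0.13), and replicate 3 lay far from both (0.80 and 0.79). The replicate block left the median at -0.26 and moved the members lower at an unadjusted p under 0.05 in limma from 10 to 15. The share of all symbols was not counted in that fit.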
